A study of Mus musculus with 4 samples.

Results

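The 94 protein-coding potassium channel genes of the mouse were examined for acetylation of histone H3 at lysine 9 (H3K9ac), which marks active promoters and enhancers. They were taken by symbol, as Kcn followed by a letter, from 21887 protein-coding genes of RefSeq (assembly GRCm38.p6, which is mm10), so that pore-forming and auxiliary subunits are both included and the antisense RNA Kcnq1ot1 is not. Each gene was read over its annotated span plus 1 kb on either side. H3K9ac had been mapped by chromatin immunoprecipitation and sequencing (ChIP-seq) in myeloid-derived suppressor cells (MDSC) grown from bone marrow, a class of myeloid cells that dampen T cell responses. Senescence had been induced in culture, and the cells were held under CM plus romidepsin, an inhibitor of histone deacetylases, or under CM alone; what CM stands for is not spelled out in the labels. Each condition had 1 immunoprecipitated library, with its peaks in a list of broad regions, so every difference below stands without a replicate check and without a test. The sources used here give no strain, sex, age, dose or duration.

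The romidepsin list held 103336 peaks over 200.4 Mb and the CM list 16419 peaks over 23.0 Mb. Read numbers are unknown for both, and more reads give more and wider peaks. The labelled myeloid identity was checked on 10 markers, of which 10 had a peak with romidepsin and 9 in CM, S100a9 being without a CM peak. Of markers of other cells, neuron genes had a peak at 3 of 6 with romidepsin and at 1 of 6 (Syp) in CM, T and B cell genes at 5 of 6 and 2 of 6 (Cd4 and Cd79a), and muscle genes at 1 of 5 (Ckm) and 0 of 5. Of all protein-coding genes 68.3% had a peak with romidepsin and 53.6% in CM. T and B cell genes were above that share with romidepsin (83.3%) and below it in CM (33.3%). The part that other cells in the culture had in the peaks described here was not tested.

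Potassium channels let potassium ions leave or enter a cell and set its resting voltage. Voltage-gated Kv channels open on depolarization, inward rectifiers (Kcnj) and two-pore channels (Kcnk) hold the resting potential, and calcium- or sodium-activated channels couple voltage to ions inside the cell, while auxiliary subunits tune the pores they bind. Most are known from neurons, heart and muscle. A few carry the potassium currents of macrophages and microglia, where potassium leaving the cell is a trigger of the NLRP3 inflammasome.

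The promoters of 7 channel genes are shown because marked and unmarked starts both include CpG-rich and CpG-poor sequence. Each is the window of 250 bases before to 50 bases after the listed RefSeq start (GRCm38.p6), written along the strand of the gene with every CpG dinucleotide in capitals. Peaks of both lists lay over the first 4 starts, of Kcnk13 (chr12:99964249-99964548, plus strand), Kcnn4 (chr7:24370013-24370312, plus strand), Kcna3 (chr3:107035912-107036211, plus strand) and Kcnj2 (chr11:111065914-111066213, plus strand). The start of Kcnmb4 (chr10:116473474-116473773, minus strand) lay under a peak with romidepsin and under none in CM, and those of Kcnc1 (chr7:46396218-46396517, plus strand) and Kcna5 (chr6:126535506-126535805, minus strand) lay under no peak of either list.
Kcnk13: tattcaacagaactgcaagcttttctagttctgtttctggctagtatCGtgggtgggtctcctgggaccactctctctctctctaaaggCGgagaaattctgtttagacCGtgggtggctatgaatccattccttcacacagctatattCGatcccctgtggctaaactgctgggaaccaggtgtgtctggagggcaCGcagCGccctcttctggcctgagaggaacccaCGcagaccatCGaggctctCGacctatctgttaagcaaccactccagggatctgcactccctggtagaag
Kcnn4: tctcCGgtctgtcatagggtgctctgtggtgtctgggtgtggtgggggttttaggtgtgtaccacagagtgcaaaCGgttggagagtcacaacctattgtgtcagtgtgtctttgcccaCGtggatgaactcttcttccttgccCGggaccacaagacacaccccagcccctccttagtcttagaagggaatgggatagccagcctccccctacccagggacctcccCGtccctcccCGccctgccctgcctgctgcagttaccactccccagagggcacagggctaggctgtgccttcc
Kcna3: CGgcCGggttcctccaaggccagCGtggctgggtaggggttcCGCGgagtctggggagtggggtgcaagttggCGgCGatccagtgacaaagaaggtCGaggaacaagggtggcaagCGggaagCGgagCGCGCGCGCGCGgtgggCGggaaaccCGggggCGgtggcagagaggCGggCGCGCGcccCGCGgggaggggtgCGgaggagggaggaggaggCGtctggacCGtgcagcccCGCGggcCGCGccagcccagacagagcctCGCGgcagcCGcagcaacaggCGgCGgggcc
Kcnj2: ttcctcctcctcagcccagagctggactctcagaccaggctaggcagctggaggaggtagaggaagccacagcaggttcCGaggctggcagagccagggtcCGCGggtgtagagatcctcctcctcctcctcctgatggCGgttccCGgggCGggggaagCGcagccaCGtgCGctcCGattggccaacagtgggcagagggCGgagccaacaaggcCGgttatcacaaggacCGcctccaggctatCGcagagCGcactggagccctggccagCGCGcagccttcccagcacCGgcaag
Kcnmb4: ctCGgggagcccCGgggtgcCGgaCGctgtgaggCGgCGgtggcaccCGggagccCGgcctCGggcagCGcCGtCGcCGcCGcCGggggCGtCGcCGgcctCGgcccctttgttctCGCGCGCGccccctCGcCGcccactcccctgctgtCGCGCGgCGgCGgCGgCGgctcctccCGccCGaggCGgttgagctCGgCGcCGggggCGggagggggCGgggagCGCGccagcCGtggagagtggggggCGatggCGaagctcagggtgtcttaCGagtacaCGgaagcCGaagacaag
Kcnc1: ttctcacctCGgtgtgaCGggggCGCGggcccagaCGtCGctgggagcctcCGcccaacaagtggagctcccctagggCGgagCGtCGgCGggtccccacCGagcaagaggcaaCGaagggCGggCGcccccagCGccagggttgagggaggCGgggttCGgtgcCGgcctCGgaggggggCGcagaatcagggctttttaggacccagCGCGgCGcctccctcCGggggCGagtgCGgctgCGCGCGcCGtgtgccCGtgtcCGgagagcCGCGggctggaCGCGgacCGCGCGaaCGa
Kcna5: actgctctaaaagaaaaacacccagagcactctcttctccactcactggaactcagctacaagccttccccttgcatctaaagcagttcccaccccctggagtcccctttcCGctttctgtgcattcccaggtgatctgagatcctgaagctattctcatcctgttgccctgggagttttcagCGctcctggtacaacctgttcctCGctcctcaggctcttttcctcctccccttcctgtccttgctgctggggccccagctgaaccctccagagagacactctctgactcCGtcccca
The acetylated promoters of Kcnk13 and Kcnn4 held 9 and 6 CpG in 300 bases. That of Kcna3 held 37 and that of Kcnj2 held 18. The promoter of Kcnmb4 held 48, and the unmarked promoters of Kcnc1 and Kcna5 held 41 and 4.

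Potassium channel genes had few peaks in CM, and 31 more of them had one with romidepsin. With romidepsin 51 of 94 genes had at least 1 peak (54.3%, exact Clopper-Pearson interval 43.7 to 64.6 at 95% confidence), against 68.3% of all protein-coding genes. In CM 20 genes had a peak (21.3%, interval 13.5 to 30.9), against 53.6% of all protein-coding genes. All 20 also had a peak with romidepsin, as did 11725 of the 11727 protein-coding genes with a CM peak. A peak in the romidepsin list only was found at 31 genes (33.0%), against 14.8% of all protein-coding genes, and 43 genes (45.7%) had no peak in either list, against 31.7%. Only a gene without a CM peak can be in the romidepsin list only, and channel genes lacked a CM peak more often than all protein-coding genes. The shares of 33.0% and 14.8% therefore do not by themselves compare how often romidepsin added a peak. The intervals cover counting over genes only. The romidepsin list was also cut to its 16419 strongest peaks, so that both lists held equal numbers of peaks. The lowest −log10 q kept was then 4.34 with romidepsin and 1.0 in CM, so the lists were not equally strict. Of the channel genes, 25 (26.6%) then had a peak with romidepsin and 20 (21.3%) in CM, against 54.5% and 53.6% of all protein-coding genes. A peak with romidepsin only was found at 7 (7.45%), against 3.92%. The order of the romidepsin-only shares depended on the threshold, since with peaks of a −log10 q of at least 5 alone the share was 14.9% of channel genes and 18.5% of all protein-coding genes. At equal numbers of peaks the 7 were Kcna2, Kcna7, Kcnh3, Kcnh4, Kcnip2, Kcnk7 and Kcnmb4. Kcnn3 and Kcnq1 were then in the CM list only, because their strongest romidepsin peaks (−log10 q 4.27 and 3.71) fell below the cut.

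Long genes can meet a peak more often, so the genes were also read by span. Among genes under 10 kb, channel genes had a romidepsin peak in 52.4% of cases and all protein-coding genes in 50.0%, while the shares with a CM peak were 23.8% and 36.7%. From 10 to 50 kb the romidepsin shares were 54.3% and 78.6%, and the CM shares 17.1% and 63.6%. Of the 20 channel genes of 50 to 200 kb, 14 had a romidepsin peak and 6 a CM peak, against 81.9% and 66.5% of all genes of that span. Over 200 kb, channel genes stood at 38.9% and all genes at 67.7% with romidepsin, and at 16.7% and 45.8% in CM. A peak with romidepsin only was found at 6 of 21 channel genes under 10 kb, against 1051 of 7925 protein-coding genes. From 10 to 50 kb the counts were 13 of 35 and 1351 of 9017, and from 50 to 200 kb 8 of 20 and 610 of 3955. Over 200 kb they were 4 of 18 and 218 of 990, nearly the same share. Romidepsin peaks covered 3.25% of the sequence of the channel gene windows and CM peaks 0.282%, against 14.0% and 2.16% for all protein-coding genes. These pooled shares depend on gene span, since coverage fell with span in both sets. Romidepsin coverage was 29.0% for channel genes and 36.1% for all genes under 10 kb, and 11.1% and 25.6% from 10 to 50 kb. From 50 to 200 kb it was 7.8% and 15.2%, and over 200 kb 0.658% and 3.86%. Of the 223 pairs of a romidepsin peak and a channel gene, 53 belonged to Kcnk13 and Kcnn3, and without these 2 genes the romidepsin coverage was 2.45%.

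**Figure D1:**
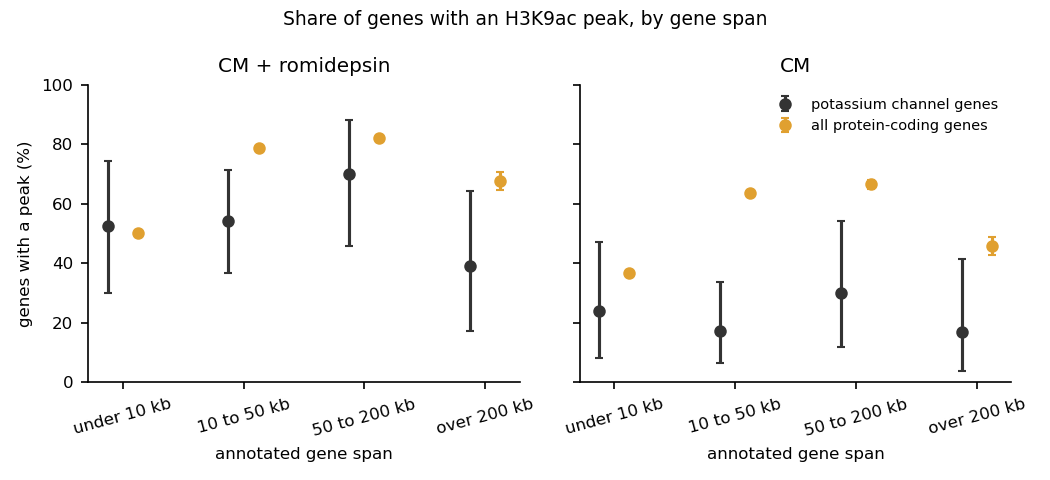
Share of genes with at least 1 H3K9ac peak in the span plus 1 kb, by annotated span, for 94 potassium channel genes and 21887 protein-coding genes, with CM plus romidepsin on the left and CM on the right. Points are shares and bars exact 95% intervals; in CM the channel genes lie below all genes in each span class, and with romidepsin below 10 kb they stand at 52.4% against 50.0%.

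Of 7 channel genes known from macrophages and microglia, 6 had a romidepsin peak and 5 a CM peak. These 7 were picked with earlier results of these data known, so their count describes them and supports nothing further. Kcnk13, which encodes the two-pore channel THIK-1 that carries the resting potassium current of microglia, had a romidepsin peak of 7448 bp over its start (chromosome 12, 99963296 to 99970743, fold 3.96) and a CM peak of 3828 bp (99964438 to 99968265, fold 6.18). Its CM fold was the highest of the 20 genes. A fold is the authors' enrichment over background averaged over a peak, and since the 2 lists rest on different backgrounds, a pair of folds measures no gain or loss. With romidepsin, 29 separate peaks over 54.1 kb lay across 53.3% of the Kcnk13 window, the most peaks and the greatest length of any channel gene, where CM had the 1 peak at the start. None of the 29 reached another protein-coding gene.

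Kcnn4 encodes the calcium-activated channel of intermediate conductance of red cells, lymphocytes and macrophages. Its start lay under a romidepsin peak of 3237 bp (chromosome 7, 24368905 to 24372141, fold 4.33) and a CM peak of 1987 bp (24370062 to 24372048, fold 5.94). Romidepsin peaks, 5 in all, covered 86.0% of the Kcnn4 window, against 11.4% for the CM peak. Kcnj2 encodes an inward rectifier that sets the resting potential of muscle and of macrophages. Its start lay under a romidepsin peak of 6139 bp (chromosome 11, 111063881 to 111070019, fold 4.25) and a CM peak of 3261 bp (111064918 to 111068178, fold 5.40). Another 5 romidepsin peaks followed along Kcnj2, so that 76.2% of its window was covered with romidepsin and 23.8% in CM.

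Kcna3 encodes a voltage-gated channel of T cells and microglia in a single short gene of 1.97 kb. Its romidepsin peak (chromosome 3, 107032761 to 107042328, 9568 bp, fold 3.92) covered the whole window, and its CM peak (107035487 to 107038723, 3237 bp, fold 5.54) covered 81.6% of it. The romidepsin peak also reached the non-coding genes AI504432 and Gm38712. Kcnk6 encodes the two-pore channel TWIK2, described in mouse macrophages as a path for potassium leaving the cell. It had a romidepsin peak of 8567 bp (chromosome 7, 29226011 to 29234577, fold 3.62) over both of its CM peaks, of which the stronger (29231476 to 29232955, fold 5.66) lay at an annotated end of the gene. Kcnma1, the gene of the large-conductance calcium-activated channel, had 2 romidepsin peaks and no CM peak, and these lay 601 and 539 kb from its listed start, in a gene of 713 kb. Kcna5, a voltage-gated channel of heart and macrophages, had no peak in either list, and the nearest lay 166 kb away with romidepsin and 313 kb away in CM.

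**Figure D2:**
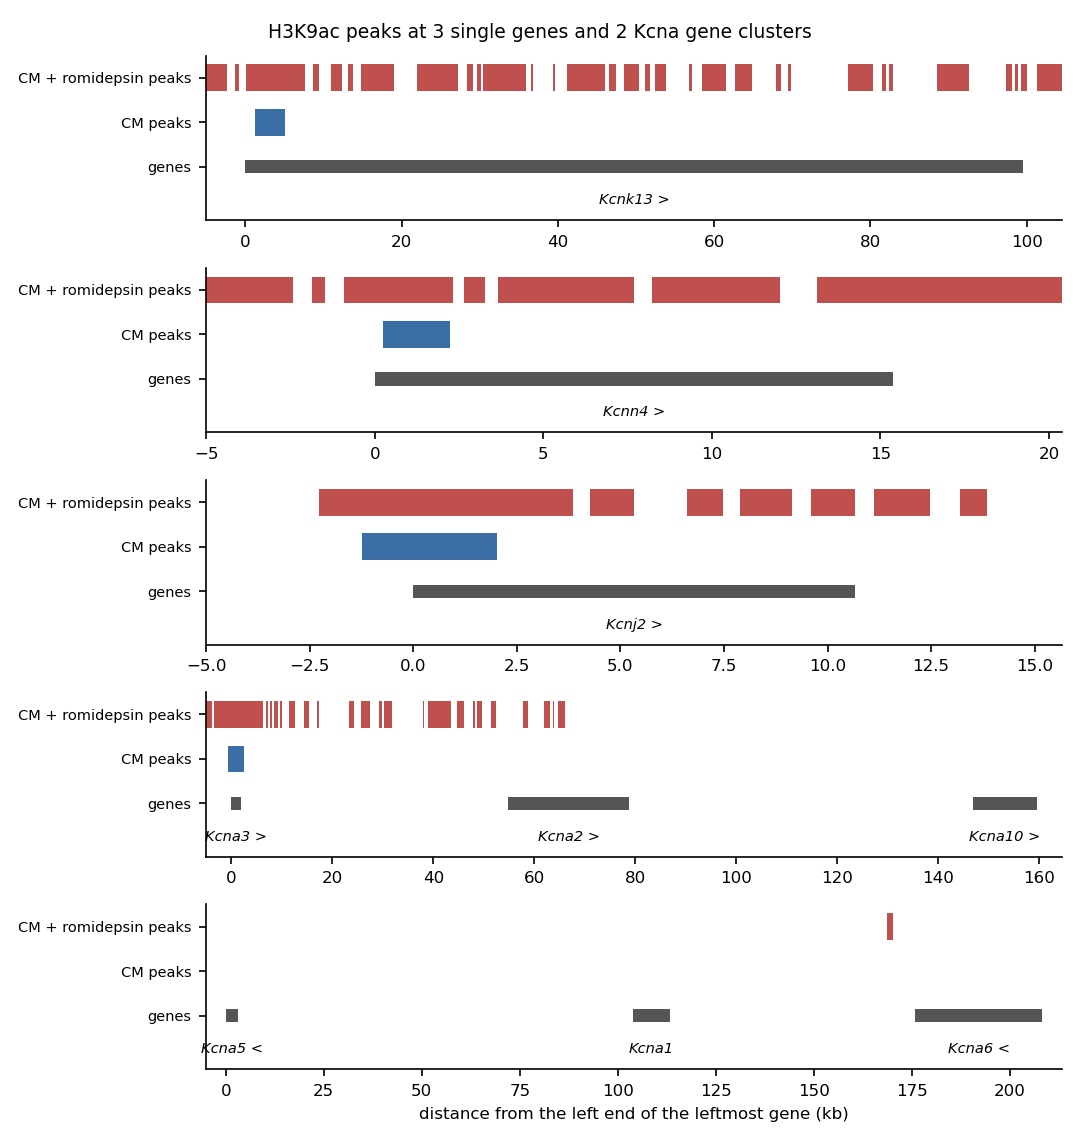
Peaks of the CM plus romidepsin list (upper row, red) and of the CM list (lower row, blue) over Kcnk13, Kcnn4, Kcnj2, the Kcna3 to Kcna10 cluster and the Kcna5 to Kcna6 cluster, with genes in grey and their strand as an arrow where listed; x is the distance in kb from the left end of the leftmost gene. At Kcnk13, Kcnn4 and Kcnj2 there is 1 CM peak, at the start, and 29, 5 and 6 romidepsin peaks in the gene windows.

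The peaks around Kcna3 did not reach all of its neighbours. The gap of 52.8 kb between Kcna3 and Kcna2, without another protein-coding gene, was met by 18 romidepsin peaks and 1 CM peak, those over Kcna3 included, and the gap of 68.1 kb between Kcna2 and Kcna10 by none of either list. Kcna2, a channel of axons, had 4 romidepsin peaks and no CM peak, and Kcna10 had no peak. The second group of Kcna genes, on chromosome 6, carried none at Kcna5, Kcna1 and Kcna6, with 1 romidepsin peak in the gap between Kcna1 and Kcna6. Channel genes less than 100 kb apart formed 8 groups with 17 genes. In 3 of these groups no member had a peak in either list, namely Kcne2 with Kcne1, Kcna1 with Kcna6, and Kcnj5 with Kcnj1. Kcnj16, which lies 38.2 kb from Kcnj2, had 2 romidepsin peaks and no CM peak.

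Of the Kv pore-forming genes, 19 of 40 had a romidepsin peak and 8 of 40 a CM peak, and 21 had none. Those with a CM peak included Kcna3, Kcng2, Kcng3, Kcnh6, Kcnq1 and Kcnq5. Kcng3 encodes a silent subunit that joins other Kv pores, and its start lay under a romidepsin peak of 4383 bp (fold 4.26) and a CM peak of 1004 bp (fold 3.51). Kcnq5, a subunit of the neuronal M current, had a romidepsin peak of 3641 bp (fold 3.55) over its starts and a CM peak of 773 bp (fold 3.62) that ended 182 bp from the nearest. Kcng2 had a CM peak of 318 bp (fold 4.14) near an annotated end, the shortest CM peak among the channel genes, inside the non-coding gene D330025C20Rik.

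The peaks of both lists at Kcnh6 and Kcnq1 also met other genes. The strongest romidepsin peak in the window of Kcnh6, an ERG family channel, reached Dcaf7 (chromosome 11, 106035498 to 106040307, fold 4.59). The CM peak there also reached Dcaf7 and began 0.564 kb outside Kcnh6 (106036159 to 106038554, fold 5.65). A separate romidepsin peak lay over the listed start of Kcnh6 and in the window of Ace3. Kcnq1, the slow repolarizing channel of the heart, had 14 romidepsin peaks over 13.6 kb and 1 CM peak in a gene of 320 kb. Of the romidepsin peaks, 3 lay inside Kcnq1ot1, the imprinted RNA transcribed from within Kcnq1. The nearest to the boundary of Kcnq1ot1 with the higher coordinate, 143296547, lay 46 bp from it (chromosome 7, 143294627 to 143296501, fold 2.96). The CM peak (143294769 to 143296320, fold 3.84) lay at the same place, 227 bp from that boundary. Whether that boundary is where Kcnq1ot1 starts or ends was not examined, nor was the start of Kcnq1.

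Inward rectifier genes had a romidepsin peak at 10 of 15 and a CM peak at 2 of 15. The 2 were Kcnj2 and Kcnj8, the pore of vascular ATP-sensitive channels, whose start lay under a romidepsin peak of 3755 bp (fold 3.47) and a CM peak of 363 bp (fold 4.23). Among two-pore genes 7 of 14 had a romidepsin peak and 3 of 14 a CM peak, the third beside Kcnk13 and Kcnk6 being Kcnk4, the mechanically gated channel TRAAK. Its start lay under a romidepsin peak of 4631 bp (fold 3.59), inside which a CM peak of 458 bp (fold 4.01) lay 310 bp from the start, and another pair of peaks at the far end of Kcnk4 also reached Catsperz, the romidepsin peak Esrra as well. Calcium- or sodium-activated genes counted 5 of 8 with a romidepsin peak and 3 of 8 with a CM peak. Beside Kcnn4 these were its relatives of small conductance, Kcnn1 and Kcnn3. Kcnn3 had 24 romidepsin peaks over 39.1 kb, none of them reaching another protein-coding gene, and 2 CM peaks over 1.76 kb. Its CM peak at the start was weak (fold 3.70, −log10 q 1.76). Kcnn1 had 8 romidepsin peaks and 1 CM peak (fold 4.24) at the end of the gene that lies upstream of its listed starts, 1439 bp from the nearest. Kcnn2, the remaining member of that branch, had no peak in either list over its 417 kb.

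Auxiliary subunit genes had a romidepsin peak at 9 of 16 and a CM peak at 4 of 16. Kcnab2 encodes a Kv beta subunit related to aldo-keto reductases, and was the channel gene with the most CM peaks, 3, where romidepsin had 7. Of its 3 listed starts 2 lay under peaks of both lists, one inside the gene (romidepsin fold 4.11, CM fold 5.95) and one shared with the window of Nphp4 (romidepsin fold 4.62, CM fold 5.63). Kcnab3, another beta subunit, had the highest romidepsin fold of the family (chromosome 11, 69322152 to 69328291, fold 4.83) and a CM peak of fold 4.84, both of which also reached Cntrob and Trappc1. Kcne3, an epithelial partner of Kcnq1, had 4 romidepsin peaks and a CM peak of 575 bp over one of its starts (fold 4.26) that also met the non-coding gene Gm51453. Kcnip1, a calcium-binding partner of Kv4 channels, had 6 romidepsin peaks and 1 internal CM peak (fold 4.29) inside the non-coding gene Gm36395. Kcnrg, which fits none of these classes, had 2 romidepsin peaks, both in the window of Trim13 as well, and no CM peak.

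**Figure D3:**
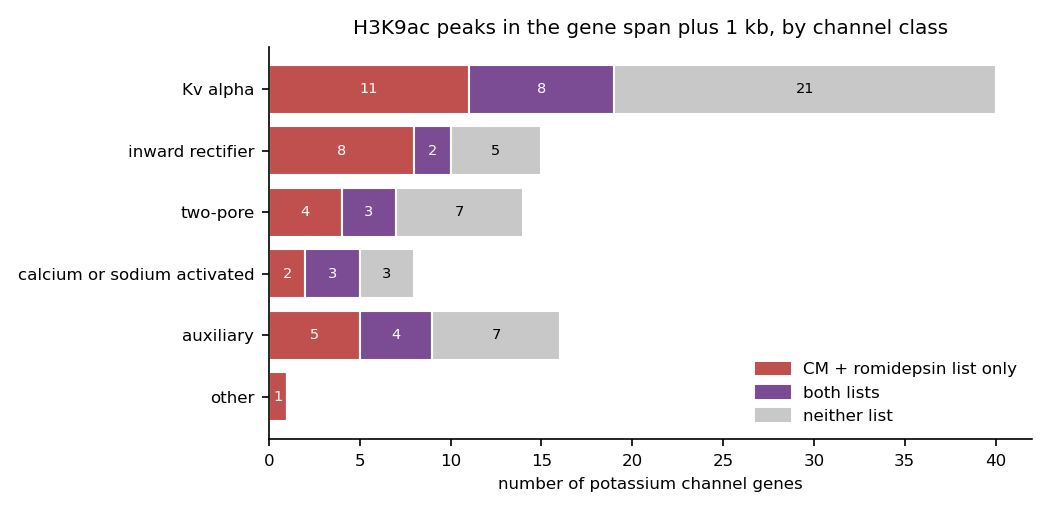
Number of potassium channel genes with a peak in the CM plus romidepsin list only (red), in both lists (purple) and in neither (grey), by class. In each class more genes have a peak with romidepsin than in CM, and 21 of the 40 Kv genes have none. The romidepsin list is the longer, with 103336 peaks against 16419. With the lists cut to equal numbers of peaks the first statement does not hold in each class. Kcnj2 and Kcnj8 are then the only inward rectifier genes with a peak, each in both lists.

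At the 20 genes marked in both lists, the acetylated length in the gene window was greater with romidepsin at all 20. The median was 8332 bp with romidepsin and 1278 bp in CM, and the ratio of the lengths ran from 1.23 at Kcna3, whose window was filled, to 34.6 at Kcng2, with a median of 7.03. Over 11725 protein-coding genes with a peak in both lists the median ratio was 4.46. Each of the 26 CM peaks in channel gene windows overlapped a romidepsin peak that was wider, 4.58-fold at the median (range 1.21 to 31.5). Nearly all CM peaks of the whole genome did the same. Of 16419, 16399 had a romidepsin partner and 16371 a wider one, and the median over those with a partner was 4.37-fold. The strongest CM peak of each gene had a median fold of 4.57, against 5.79 over all genes marked in both lists. For the strongest romidepsin peak the medians were 3.81 and 3.98.

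**Figure D4:**
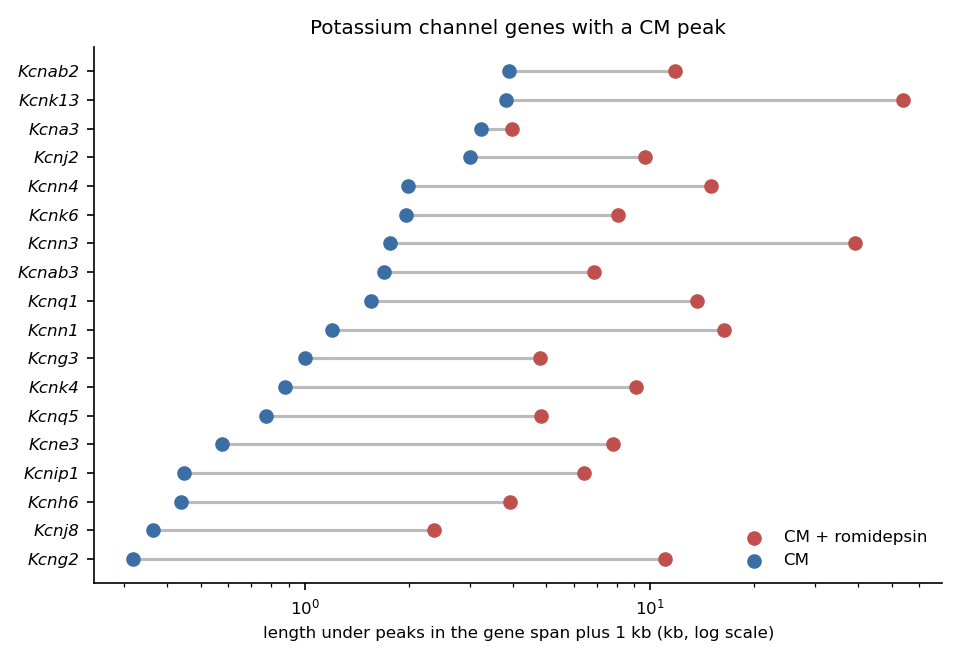
Length under peaks in the gene span plus 1 kb (kb, log scale) for 18 of the 20 potassium channel genes with a CM peak, with CM plus romidepsin in red and CM in blue. Every red point lies to the right of its blue point, with the widest length at Kcnk13 (54.1 kb with romidepsin and 3.83 kb in CM).

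At the 31 genes marked with romidepsin only, the strongest peak had a median fold of 3.06, against 3.81 at the 20 genes marked in both lists and 2.98 over all protein-coding genes with a peak in romidepsin only. They had a median of 2 peaks, and the nearest CM peak lay 1.57 to 481 kb from the gene, 22.2 kb at the median. The highest folds were those of Kcnh4 (4.06), Kcnk7 (3.95), Kcna2 (3.71), Kcna7 (3.69), Kcnip2 (3.53), Kcnh3 (3.52), Kcnmb4 (3.48) and Kcnip3 (3.34). The strongest peaks of Kcnh4 and Kcnk7 also reached other genes. The peak at Kcnh4, a neuronal ELK family channel, was 21875 bp long and also reached Rab5c, where it overlapped 5 CM peaks outside the Kcnh4 window. The peak at Kcnk7, a two-pore relative without a known current of its own, was 22266 bp long and also reached Ehbp1l1, Map3k11 and Pcnx3. It overlapped 1 CM peak, and the second romidepsin peak of Kcnk7 overlapped 2, all outside the Kcnk7 window. Kcnh4 had a second romidepsin peak over its own start (3762 bp, fold 3.62), which also reached Hcrt.

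At Kcnk7, Kcnmb1, Kcnrg and Kcnu1 every romidepsin peak also reached another protein-coding gene, and the remaining genes of this kind had at least 1 that did not. Kcna7, a channel of muscle, had 1 romidepsin peak of 4934 bp over its start. Kcnmb4, the neuronal beta subunit of the channel encoded by Kcnma1, had 1 peak of 1843 bp over its CpG-rich start (chromosome 10, 116472927 to 116474769), 106 kb from the nearest CM peak, and this peak also met the antisense RNA gene Kcnmb4os2. Kcnip2, the Kv4 partner of heart muscle, had 2 peaks inside the gene, the stronger 2.34 kb from its listed start. Kcnip3, which encodes a calcium sensor also known as DREAM, had 6 peaks over 9.70 kb, 3 of them within 1 kb of a start. Kcnh3 had 1 peak of 3246 bp at an annotated end.

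Other genes stood out by number or length rather than by fold. Kcnj10, the inward rectifier of astrocytes, had 9 romidepsin peaks over 18.0 kb (51.6% of its window), with its start under a peak of 2918 bp, and the nearest CM peak lay 1.65 kb from the gene. Its neighbour Kcnj9, a subunit of G protein-gated channels, had 4 peaks over 5.76 kb. The gap of 11.9 kb between the genes was met by 5 romidepsin peaks, those reaching in from Kcnj9 and Kcnj10 included, and by no CM peak. Kcnab1 had 11 peaks over 15.4 kb, Kcnq3, a partner of Kcnq5 in the M current, had 7 over 7.05 kb, and Kcnj12 had 4 over 3.08 kb. At the other end of the range Kcng1, Kcnj15, Kcnu1 and Kcnmb1 each had 1 peak of 293 to 446 bp, with folds of 2.15 to 2.62. The peak at Kcnu1 also reached Ash2l and that at Kcnmb1 lay in Kcnip1 as well.

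The 43 genes without a peak included most of the longest channel genes. Of 18 channel genes over 200 kb, 11 had none: Kcnb2, Kcnd2, Kcnh1, Kcnh5, Kcnh7, Kcnh8, Kcnip4, Kcnj6, Kcnmb2, Kcnn2 and Kcnt2. Among all 990 protein-coding genes of that span, 319 had none. Kcnip4, a Kv4 partner of neurons, spans 1140 kb (chromosome 5, 48389503 to 49525122) and held no peak of either list. The nearest peaks to Kcnd2, the neuronal A-type channel with a span of 514 kb, lay 122 kb away with romidepsin and 219 kb away in CM. Over the 43 genes the nearest romidepsin peak lay 64.8 kb away at the median and the nearest CM peak 107 kb. For Kcnc1, whose CpG-rich promoter is shown above, the nearest romidepsin peak lay 2.21 kb away.

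Where the start is known, few channel genes were marked at it. A start was listed for 69 of the 94 genes. A romidepsin peak lay within 1 kb of one at 26 of 69 (37.7%), against 63.1% of the 17492 protein-coding genes with a listed start. A CM peak did so at 11 of 69 (15.9%), against 51.4%. The romidepsin peaks of Kcnd3, Kcnh2, Kcnip1, Kcnip2, Kcnj12, Kcnj15, Kcnj16, Kcnma1 and Kcnmb1 all lay farther from a listed start. By position, in the 69 genes with a listed start, 33 of 168 romidepsin peaks (19.6%) and 12 of 18 CM peaks (66.7%) were within 1 kb of one, and 68.5% and 16.7% were inside the gene away from its ends. Over all 94 genes, peaks at a listed start had a median length of 3141 bp with romidepsin and 1415.5 bp in CM, and those inside genes 871 and 489.5 bp. These shares by position and lengths were not computed over all protein-coding genes. Whether they are particular to channel genes was not tested.

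Most CpG-rich starts of channel genes lay under no CM peak. Of 26 channel genes with a start holding at least 20 CpG in 300 bases, 9 (34.6%) had such a start under a romidepsin peak and no CM peak, 3 (11.5%) under a CM peak, and 14 (53.8%) under no peak. Of 6803 protein-coding genes with such a start, 886 (13.0%) had it under a romidepsin peak only, 76.1% under a CM peak and 740 (10.9%) under none. Where no CM peak lay over such a start, channel genes thus more often had no peak (14) than a romidepsin peak (9). Among all genes the order was the reverse, 740 against 886. The 3 with CM H3K9ac were Kcna3, Kcnab2 and Kcng3. The 9 with romidepsin only over such a start were Kcna2, Kcnh4, Kcnh6, Kcnip3, Kcnj10, Kcnj4, Kcnk12, Kcnmb4 and Kcnq5. Of these, Kcnh6 and Kcnq5 had a CM peak elsewhere in the window, that of Kcnq5 182 bp from this start. The 14 with no peak over such a start were Kcna4, Kcnc1, Kcnd2, Kcnd3, Kcnh1, Kcnh7, Kcnh8, Kcnj6, Kcnk15, Kcnk2, Kcnk5, Kcnma1, Kcns1 and Kcns3, of which Kcnd3, Kcnk5 and Kcnma1 had a romidepsin peak elsewhere in the window, that of Kcnk5 110 bp from its start. With a minimum of 10 CpG the shares under romidepsin only, under CM and under none were 26.2%, 14.3% and 59.5% of 42 channel genes, against 15.3%, 69.3% and 15.3% of all genes with such a start. With a minimum of 30 CpG they were 3, 2 and 5 of 10 channel genes, against 10.6%, 79.0% and 10.4% of all. The difference from all genes was not tested.

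The opposite case was also present. The starts of Kcnk13 and Kcnn4, shown above, lay under CM peaks with 9 and 6 CpG. Over the 18 channel gene starts under a romidepsin peak only the median was 18 CpG, over the 10 under a CM peak it was 11.5, and over the 66 under no peak it was 8. For the starts of all protein-coding genes the medians were 12 under a romidepsin peak only, 23 under a CM peak and 4 under none.

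**Figure D5:**
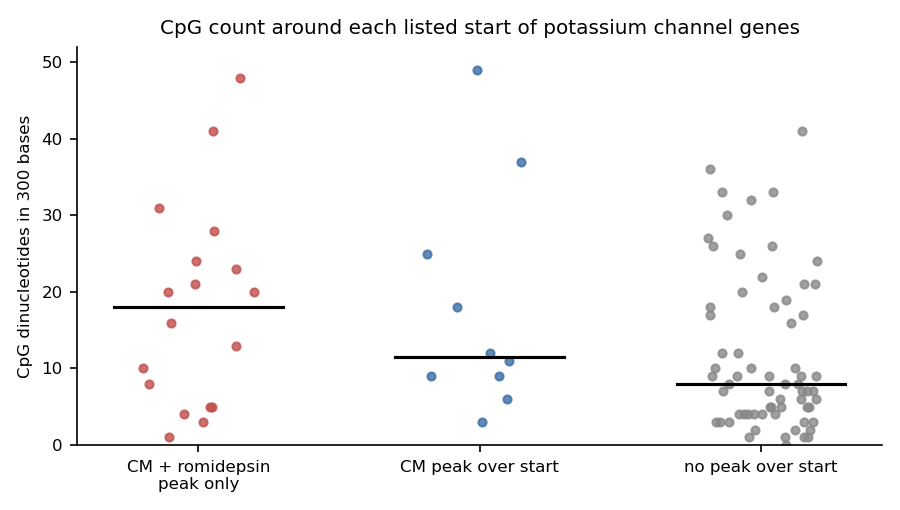
CpG dinucleotides in the 300 bases around each of 94 listed starts of 69 potassium channel genes, by the peak over the start: CM plus romidepsin only (18 starts), CM (10 starts) and none (66 starts). Points are starts and lines medians (18, 11.5 and 8), and starts under no peak reach 41 CpG.

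Short motifs were counted in the same windows on both strands, where overlapping windows of one gene were each counted. The GC box GGGCGG was found at 47.9% of the 94 channel starts and at 46.2% of all 21263 starts. The ETS core GGAAGT was found at 16.0% and 24.8%, and at 0 of the 10 channel starts under a CM peak, against 30.1% of all starts under one. The AP-1 motif TGANTCA was found at 4.26% and 6.99%, and the cAMP response element TGACGTCA at 0 of 94 and 2.23%. A match is a run of letters and no evidence that a factor was bound.

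Related gene sets are given for comparison. Of 13 other genes of potassium conductance, among them Hcn pacemaker channels and partners of Kv and ATP-sensitive channels, 7 had a romidepsin peak and 1 a CM peak, Amigo1. Voltage-gated calcium channel genes had a romidepsin peak at 17 of 26 (65.4%) and a CM peak at 8 of 26 (30.8%), and voltage-gated sodium channel genes at 9 of 14 (64.3%) and 2 of 14 (14.3%). Potassium channel genes, at 54.3% and 21.3%, were not tested against them.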

How the data were processed

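Peak lists of the 2 immunoprecipitated libraries were used, 1 per condition, and inputs were not analysed here. The tools named in the submitters' processing notes are deepTools 3.5.1, MACS2 2.2.7.1 and Bowtie2 2.4.4, with build mm10. Settings, and whether the input was the control, are not given in the sources used here. The deposited lists hold, per broad peak, a score (not used), the fold enrichment (a ratio), a −log10 p-value and a −log10 q-value, each averaged over the peak by the authors' caller. Read depth is unknown.

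Genes were taken from RefSeq (GRCm38.p6), with starts and promoter sequences from its promoter table, which matched 69 of the 94 genes by gene identifier. A gene had a peak where its span plus 1 kb overlapped one by at least 1 bp. Distances and neighbours use protein-coding genes unless stated. Counts were made with Python (version 3.11.15) and exact intervals with SciPy (version 1.17.1), and the overlap code was tested on simulated data. No test between conditions was run.

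The members and lists, the macrophage channel list and the CpG minimum included, were chosen with earlier results of these data known. A few genes are counted but not reported here by name. Other genes were named where they had a CM peak, belonged to the macrophage list, or were among the 8 genes in romidepsin only with the highest fold, the most peaks or the largest covered length; further named genes make up a count or a comparison, picked with their values in view. The alternatives concerned thresholds, list length, windows, overlap and merging.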

Additional observations from a re-analysis of the deposited data

How the results depend on the processing

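No replicate could be left out. No paired analysis was possible because each condition has 1 library. Counts of genes stayed within 1.5 times of the reported ones with windows without flank or with 5 kb, with gene ends only, with 200 bp of overlap, with a −log10 q of at least 2, with merged peaks, and with only peaks that reach no other protein-coding gene. At a −log10 q of at least 5, 19 genes had a romidepsin peak, 5 a CM peak, 14 one in romidepsin only and 75 none, against 49.8%, 32.4%, 18.5% and 49.1% of all protein-coding genes, so that the romidepsin-only share of channel genes (14.9%) was below that of all genes and not above it. Romidepsin peaks then covered 0.773% of the windows, against 6.01% for all genes. At a −log10 q of at least 10 these counts were 0, 0, 0 and 94, and 0.694% and 0.279% of all genes had a romidepsin or CM peak. At a fold of at least 3, 16 genes (17.0%) had a peak in romidepsin only, against 7.19% of all genes. With the romidepsin list cut to as many peaks as the CM list, 25 genes had a romidepsin peak, 7 one in romidepsin only and 67 none, against 54.5%, 3.92% and 42.5% of all genes. Within 1 kb of a listed start, 26 of 69 genes (37.7%) had a romidepsin peak and 11 (15.9%) a CM peak. Romidepsin only was found at 15 (21.7%) and no peak at 43 (62.3%). Of all protein-coding genes with a listed start these shares were 63.1%, 51.4%, 11.8% and 36.9%. Romidepsin coverage was 2.94% without flank and 2.45% without Kcnk13 and Kcnn3. The settings by listed start, by neighbouring gene and without Kcnk13 and Kcnn3 were chosen after seeing the data. Unknown depth limits what a missing peak shows.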
